A study of Mus musculus with 16 samples.

Results

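The 9 genes described here encode the high mobility group proteins *Hmga1*, *Hmga2*, *Hmgb1*, *Hmgb2*, *Hmgb3*, *Hmgn1*, *Hmgn2*, *Hmgn3* and *Hmgn5*, and were taken by symbol from a table of 30386 genes. All 9 passed the filter on low values and were among the 12533 genes tested. They were measured in 16 cultures of neural stem/progenitor cells (NSPCs) that had been derived from the subventricular zone of C57BL/6J/Babr mice of 3 months of age. In 8 cultures the cells carried a constitutively expressed *GFP* transgene as the control (*GFP*-NSPCs), and in the other 8 they carried a *Dbx2* transgene (*Dbx2*-NSPCs), *Dbx2* being a homeobox transcription factor gene. Cells of both groups had received their transgene on a plasmid, been selected with puromycin and been grown as neurospheres in non-adherent culture with EGF and FGF2. The replicate numbers run from 1 to 8 in each group, and the comparison was made over all samples and within the samples numbered 1 to 4 and those numbered 5 to 8. Each group of 8 holds 4 repeat cultures of each of 2 independently derived lines, so n = 8 counts cultures and not derivations or animals. The labels do not say which line a sample came from.

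High mobility group proteins are abundant non-histone components of chromatin. Proteins of the HMGA family bind the minor groove of AT-rich DNA through AT-hooks, those of the HMGB family bend DNA through HMG boxes, and those of the HMGN family bind the nucleosome core and compete there with linker histone H1. *Hmga2* is known in neural stem cells for promoting self-renewal in young animals and for its repression by let-7 microRNAs, while *Hmgb2* is abundant in cycling neural progenitors.

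Depth ran from 1803928 to 3293285 reads per sample, and levels are given as CPM, reads scaled to a sample's total. A floor of 3 reads, below which a level was not told from 0, came to 0.911 to 1.66 CPM. It covers counting error only, as the reads carried no molecular identifiers. *Dbx2* itself was at 171, 105, 116 and 89.3 CPM in *GFP*-NSPCs numbered 1 to 4, at 30.7 to 39.5 CPM in *GFP*-NSPCs numbered 5 to 8, and at 114 to 232 CPM in *Dbx2*-NSPCs. The increase over all samples passed the test (limma, log2 fold change 1.26, adjusted p = 0.00978), whereas within the samples numbered 1 to 4 the groups overlapped and it did not (0.54, adjusted p = 0.0891). Among those numbered 5 to 8 the log2 fold change was 1.99 and passed. The difference between these folds, 1.45, passed the test as well. The table holds a single row for *Dbx2*, so reads from the transgene and from the resident gene cannot be told apart. The labelled cell type fits its defining markers, with *Sox2* at 285 to 580.3 CPM and *Nes* at 454 to 1253 CPM in *GFP*-NSPCs, and at 229 to 453 and 534 to 795 CPM in *Dbx2*-NSPCs. The stem and progenitor markers *Egfr*, *Fabp7* and *Slc1a3* were lower in *Dbx2*-NSPCs (limma, log2 fold changes -0.45, -0.72 and -1.03). The 4 microglial and 5 endothelial and pericyte markers never exceeded 1.66 CPM, the highest floor of any sample. *Pecam1* reached 1.41 CPM in *GFP*-NSPCs numbered 1 to 4, and *Cx3cr1* 1.30 CPM in *Dbx2*-NSPCs numbered 1 to 4. Both values were above the floors of those samples. The 4 astrocyte markers summed to 191 to 388 CPM in *GFP*-NSPCs and to 447 to 813 CPM in *Dbx2*-NSPCs, and 2 of them, *Gfap* and *Aldoc*, were higher in *Dbx2*-NSPCs (log2 fold changes 3.31 and 1.42). *Aldoc* also had a fold that differed between the sets (0.82 among the samples numbered 1 to 4 and 2.02 among those numbered 5 to 8). The 5 neuronal markers summed to 840 to 1293 and 705 to 906 CPM in the same order, most of it from *Map2*, which was lower in *Dbx2*-NSPCs (-0.47). *Dcx* and *Rbfox3*, near the floor in many samples, fell among the samples numbered 1 to 4 (4.07 to 0.0825 and 5.56 to 1.05 CPM) and rose among those numbered 5 to 8 (0.205 to 4.74 and 0.88 to 9.85 CPM). The 5 oligodendrocyte lineage markers summed to 1301 to 1765 and 1077 to 1429 CPM, and the 3 ependymal markers, with *Tmem212* at 0, to 9.56 to 21.4 and 14.4 to 34.7 CPM. Of the ependymal markers, *Ccdc153* was higher in *Dbx2*-NSPCs (1.75). The part of such shifts in the results on the high mobility group genes was not tested.

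Over all 16 samples, the HMGB genes *Hmgb2* and *Hmgb3* fell in *Dbx2*-NSPCs, and the other 7 genes did not pass the test. This is 2 of 9 genes, both lower, where 7.78% of all tested genes were lower and 8.03% higher, 15.8% in either direction. The median log2 fold change of the 9 genes was -0.13, beside -0.02 over all tested genes. The groups of 8 overlapped for each of the 9 genes, and 3.41% of all tested genes had no overlap. The summed CPM of the 9 genes was 2045 ± 189 (SD, n = 8) in *GFP*-NSPCs and 1752 ± 124 (SD, n = 8) in *Dbx2*-NSPCs. The HMGB sum went from 982 ± 119 to 738 ± 87.5 CPM, while the HMGN sum was 1007 ± 73.0 and 980.3 ± 43.9 CPM. In cultures of this kind, fewer cells of a type and less RNA per cell cannot be told apart. With the replicate number as a block, 4 of 9 genes passed, *Hmga2* as lower (adjusted p = 0.0383) and *Hmgn3* as higher (adjusted p = 0.0304), where 21.7% of all tested genes passed. The same 4 of 9 passed with the set of samples as a covariate (24.2% of all tested genes), and with edgeR on whole reads and that covariate (23.4%). With the block, the calls described below within the sets and for their difference stayed at 4, 3 and 2 genes, where 15.8%, 23.8% and 10.4% of all tested genes passed.

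**Figure D1:**
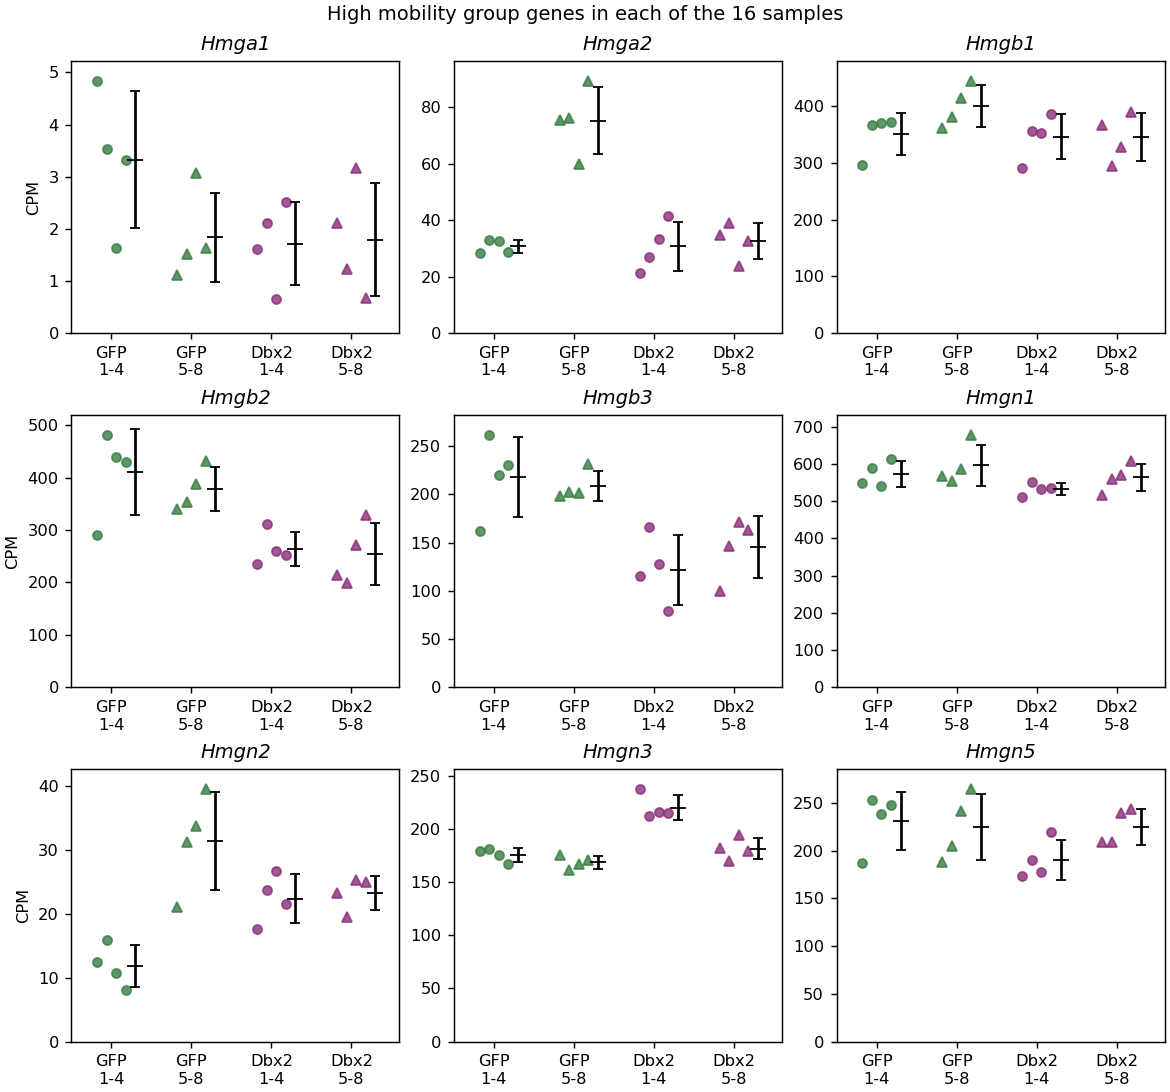
CPM of the 9 genes (vertical axes, starting at 0) in each sample, with *GFP*-NSPCs in green, *Dbx2*-NSPCs in purple, circles for samples numbered 1 to 4 and triangles for 5 to 8; bars give the mean and SD of 4 samples. *Hmga2* stood at 60.1 to 89.2 CPM in *GFP*-NSPCs numbered 5 to 8 and at 21.5 to 41.6 CPM in the other 12 samples.

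**Figure D2:**
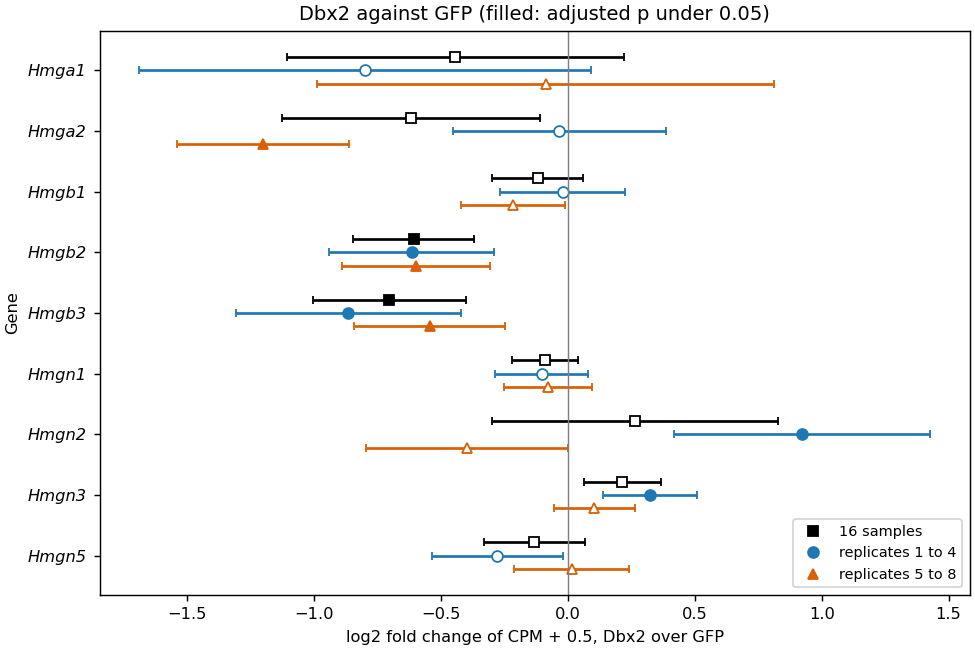
Log2 fold changes (CPM + 0.5) of *Dbx2*-NSPCs over control cultures with 95% confidence intervals from limma, over 16 samples (squares), samples numbered 1 to 4 (circles) and 5 to 8 (triangles); filled symbols passed an adjusted p of 0.05. *Hmgb2* and *Hmgb3* were lower in each, *Hmga2* among the samples numbered 5 to 8, and *Hmgn2* and *Hmgn3* were higher among those numbered 1 to 4.

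*Hmgb2* (ENSMUSG00000054717, GRCm38 chromosome 8, 57511907 to 57515999, + strand) fell in *Dbx2*-NSPCs of both sets of samples. It was at 291, 480.4, 439.6 and 430.2 CPM in *GFP*-NSPCs numbered 1 to 4 and at 340.2, 352, 388 and 432 CPM in those numbered 5 to 8. In *Dbx2*-NSPCs it was at 236, 311, 259 and 252 CPM, and at 214, 199.7, 271 and 329 CPM, in the same order. The groups did not overlap among the samples numbered 5 to 8, while among those numbered 1 to 4 *GFP*-NSPC sample 1 lay below *Dbx2*-NSPC sample 2. The log2 fold change was -0.61 (SE 0.114, limma, adjusted p = 0.00103) over 16 samples, -0.62 (adjusted p = 0.0149) among samples numbered 1 to 4 and -0.60 (adjusted p = 0.00524) among those numbered 5 to 8. The folds of the sets differed by 0.02 on the log2 scale, with a 95% interval from -0.41 to 0.44. Of the 8 same-numbered pairs of samples, a pairing taken from the labels only, 8 had the lower value in *Dbx2*-NSPCs.

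*Hmgb3* (ENSMUSG00000015217, chromosome X, 71555918 to 71560676, + strand), a paralog known from blood stem and progenitor cells, fell as well. Its values in *GFP*-NSPCs were 162, 261, 219.9 and 229.9 CPM in the samples numbered 1 to 4 and 198, 202, 201 and 231 CPM in those numbered 5 to 8. In *Dbx2*-NSPCs they were 115, 167, 127 and 78.9 CPM, and 99.96, 146, 172 and 163 CPM. *Dbx2*-NSPC sample 4 was the lowest of all, and the groups overlapped only through *GFP*-NSPC sample 1 at 162 CPM. The log2 fold change was -0.70 (SE 0.144, limma, adjusted p = 0.00221) over 16 samples, -0.86 (adjusted p = 0.0129) among samples numbered 1 to 4 and -0.54 (adjusted p = 0.0111) among those numbered 5 to 8. The difference between the sets was 0.32 (95% interval -0.20 to 0.84) and did not pass the test (adjusted p = 0.513). *Hmgb3* too was lower in *Dbx2*-NSPCs in 8 of 8 same-numbered pairs. Without the filter on low values, *Hmgb2* and *Hmgb3* missed the threshold within the samples numbered 1 to 4 (adjusted p = 0.0848 and 0.0940) and within those numbered 5 to 8 (0.0721 and 0.0982). With eBayes without trend the adjusted p among the samples numbered 1 to 4 were 0.0621 and 0.0551, and that of *Hmgb3* among those numbered 5 to 8 was 0.0677. *Hmgb2* also missed it among the samples numbered 1 to 4 without *GFP*-NSPC sample 2, 3 or 4 (adjusted p = 0.0546, 0.0543 and 0.0511).

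*Hmgb1* (ENSMUSG00000066551, chromosome 5, 149046702 to 149184489, - strand), the family member that is also released from cells as an alarm signal, showed no difference that passed the test. It ranged from 295 to 443 CPM in *GFP*-NSPCs (median 370.2) and from 289.9 to 389.6 CPM in *Dbx2*-NSPCs (median 354). The groups overlapped over most of their range. The log2 fold change over 16 samples was -0.12 with a 95% interval from -0.30 to 0.06 (limma, adjusted p = 0.383), and it was -0.02 and -0.22 in the samples numbered 1 to 4 and 5 to 8. In the last 500 bases of the transcripts, 42.5% of windows of 101 bases, the length of a read, also occur in 51 other genes for *Hmgb1*, of which 50 are pseudogenes. For *Hmgb2* the share was 27.7%, with 4 pseudogenes, and for *Hmgb3* 31.0%, with 1. The levels of the HMGB genes are uncertain to the extent that the counting split such reads.

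The promoters of the HMGB genes are shown because *Hmgb2* and *Hmgb3* moved together and *Hmgb1* did not pass the test. Each window holds 250 bases before and 50 after the start of a RefSeq transcript (GRCm38.p6, 5′ to 3′ on the gene's strand), and for *Hmgb1* it is the first listed of 2 windows. Capitals mark matches, on either strand, to CCAAT (the CCAAT box), GGGCGG (a GC box), TTTGAA (the core of the cell cycle homology region), TTTGGCGC and TTTCCCGC (E2F sites) or CACGTG (an E-box).

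*Hmgb2* promoter, chr8:57511593-57511892, + strand: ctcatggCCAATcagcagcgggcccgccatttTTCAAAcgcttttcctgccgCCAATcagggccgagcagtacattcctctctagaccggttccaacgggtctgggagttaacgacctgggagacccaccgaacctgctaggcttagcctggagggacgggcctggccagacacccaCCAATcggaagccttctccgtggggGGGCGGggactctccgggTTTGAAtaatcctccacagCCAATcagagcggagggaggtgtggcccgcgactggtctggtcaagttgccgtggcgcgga

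*Hmgb3* promoter, chrX:71555667-71555966, + strand: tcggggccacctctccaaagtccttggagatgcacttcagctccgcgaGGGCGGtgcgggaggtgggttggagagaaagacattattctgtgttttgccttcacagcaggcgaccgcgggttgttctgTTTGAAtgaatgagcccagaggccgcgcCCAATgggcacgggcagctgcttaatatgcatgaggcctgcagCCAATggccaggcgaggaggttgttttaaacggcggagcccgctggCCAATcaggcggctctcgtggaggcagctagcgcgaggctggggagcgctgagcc

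*Hmgb1* promoter, chr5:149053008-149053307, - strand: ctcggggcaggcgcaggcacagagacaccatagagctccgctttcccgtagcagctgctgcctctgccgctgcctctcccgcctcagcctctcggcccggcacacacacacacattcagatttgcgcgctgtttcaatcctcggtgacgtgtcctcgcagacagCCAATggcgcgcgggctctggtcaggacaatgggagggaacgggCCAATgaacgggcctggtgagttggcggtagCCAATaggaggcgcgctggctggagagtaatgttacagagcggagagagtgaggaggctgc

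The *Hmgb2* window held 4 CCAAT matches, that of *Hmgb3* 3 and that of *Hmgb1* 3, and 3.56% of the 27025 promoters of the same length held at least 3. TTTGAA occurred 2 times in the *Hmgb2* window, 1 time in that of *Hmgb3* and 0 times in that of *Hmgb1*, and 18.1% of all promoters held it. The windows of *Hmgb2* and *Hmgb3* each held 1 GGGCGG, which 35.9% of all promoters held. TTTGGCGC, TTTCCCGC and CACGTG, held by 0.537%, 1.11% and 7.24% of all promoters, had no match in the HMGB windows. Promoters were found for 8 of the 9 genes, the exception being *Hmgn3*, and TTTGAA matched in those of *Hmgb2* and *Hmgb3* alone among the 8. These matches describe letters and no binding was measured.

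*Hmga2* (ENSMUSG00000056758, chromosome 10, 120361275 to 120476469, - strand) differed between the sets of samples more than any other gene of the group except *Hmgn2*. In *GFP*-NSPCs it was at 28.6, 33.2, 32.6 and 29.0 CPM in samples 1 to 4 and at 75.4, 76.4, 60.1 and 89.2 CPM in samples 5 to 8. In *Dbx2*-NSPCs it was at 21.5, 27.0, 33.5 and 41.6 CPM, and at 34.9, 39.1, 23.9 and 32.8 CPM. The *GFP*-NSPCs numbered 5 to 8 thus stood above every other sample, and the remaining 3 groups of 4 overlapped each other. These values rest on 53 to 249 reads per sample.

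Among the samples numbered 5 to 8 *Hmga2* fell in *Dbx2*-NSPCs, with a log2 fold change of -1.20 (SE 0.158, limma, adjusted p = 7.64e-05), a level 0.435 times that of *GFP*-NSPCs. Among those numbered 1 to 4 the log2 fold change was -0.03, with a 95% interval from -0.45 to 0.39 (adjusted p = 0.930). The difference between these folds passed the test itself (-1.17, SE 0.255, adjusted p = 0.00294). It did so for *Hmgn2* too, which makes 2 of 9 genes, both with the lower fold among the samples numbered 5 to 8, where 9.44% of all tested genes passed, 5.04% as lower and 4.4% as higher. Over 16 samples the log2 fold change was -0.62 (SE 0.243) and did not pass (adjusted p = 0.0932). It passed with the replicate block given above, with the set of samples as a covariate (adjusted p = 0.0159) and without *GFP*-NSPC sample 1 (adjusted p = 0.0443). Within *GFP*-NSPCs, *Hmga2* was higher in the samples numbered 5 to 8 than in those numbered 1 to 4 (log2 difference 1.26, limma, adjusted p = 6.81e-06), where 15.1% of all tested genes were higher, 13.5% lower and 28.6% either. Within *Dbx2*-NSPCs the same difference was 0.10 (95% interval -0.27 to 0.47) and did not pass (adjusted p = 0.770). The progenitor marker *Nes* moved with *Hmga2* between the sets, averaging 611 and 1174 CPM in *GFP*-NSPCs numbered 1 to 4 and 5 to 8, beside 617 and 748 CPM in *Dbx2*-NSPCs. Its fold differed between the sets as well (-0.68, limma, adjusted p = 0.00488), and the part of such markers in the fold of *Hmga2* was not tested. The fold of *Dbx2* itself also differed between the sets (1.45 on the log2 scale). Its part in the set differences of *Hmga2* and *Hmgn2* was not tested. The set of a sample and its line cannot be told apart from the labels.

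Within the samples numbered 5 to 8, 3 of 9 genes fell, *Hmga2*, *Hmgb2* and *Hmgb3*, where 11.7% of all tested genes were lower and 11.5% higher, 23.2% in all. The same 3 genes had no overlap between the groups of 4, as had 24.8% of all tested genes. Within those numbered 1 to 4, 2 genes fell, *Hmgb2* and *Hmgb3*, and 2 rose, *Hmgn2* and *Hmgn3*, where 7.37% of all tested genes were lower and 8.19% higher, 15.6% in all. The groups did not overlap for *Hmgn2* and *Hmgn3*, and 19.6% of all tested genes had no overlap in these samples.

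The promoter of *Hmga2* (the same kind of window) is shown beside those of the HMGB genes. It held 0 CCAAT and 0 TTTGAA matches and 1 GGGCGG match on the opposite strand.

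*Hmga2* promoter, chr10:120476420-120476719, - strand: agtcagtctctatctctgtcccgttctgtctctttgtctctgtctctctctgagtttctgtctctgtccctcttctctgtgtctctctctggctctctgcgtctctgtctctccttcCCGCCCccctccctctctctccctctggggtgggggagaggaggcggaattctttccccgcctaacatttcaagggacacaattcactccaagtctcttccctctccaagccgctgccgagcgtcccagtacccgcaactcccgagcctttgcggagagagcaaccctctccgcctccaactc

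The let-7 microRNAs are shown because *Hmga2* is a classic let-7 target, although no microRNA was measured here. The 8 mature let-7 sequences of the mouse looked up in RefSeq share a seed (bases 2 to 8, in capitals), of which let-7a and let-7b are given. Below them stand the matches to that seed, in capitals, in the stretch after the stop codon of *Hmga2* and *Hmga1*, written as DNA.

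mmu-let-7a-5p: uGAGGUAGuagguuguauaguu

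mmu-let-7b-5p: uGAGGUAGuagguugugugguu

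*Hmga2* site 1: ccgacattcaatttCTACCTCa

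*Hmga2* site 2: cccactcctcaataCTACCTCt

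*Hmga2* site 3: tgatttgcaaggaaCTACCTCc

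*Hmga2* site 4: atcaaaacacactaCTACCTCt

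*Hmga1* site 1: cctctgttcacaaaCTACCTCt

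*Hmga2* held 4 matches in 3014 bases after the stop codon, counted in the GENCODE M21 transcript in which that stretch is longest. *Hmga1* held 1 match in 1183 bases, and the HMGB and HMGN genes held 0. Of the 11947 tested genes with such a stretch, 10.7% held at least 1 match and 8 genes, *Hmga2* among them, held at least 4. Another of these 8 genes was *Trim71*, which belongs to the Lin28 and let-7 list described below.

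*Hmga1* (ENSMUSG00000046711, chromosome 17, 27556497 to 27563674, + strand), the other AT-hook gene, lay near the floor. It was at 1.11 to 4.83 CPM in *GFP*-NSPCs and at 0.65 to 3.16 CPM in *Dbx2*-NSPCs, which is 2 to 12 reads per sample, and the groups overlapped. No comparison of it passed the test. Of the read-length windows in its transcript ends, 49.7% also occur in other genes, among them *AI413582*, which overlaps its end on the opposite strand, so its level is uncertain.

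The neighbours of *Hmga2* on the chromosome were lower in *Dbx2*-NSPCs too, but not in step with it. Of the 40 nearest genes that averaged 10 CPM or more, 36 were lower in *Dbx2*-NSPCs over 16 samples, with a median log2 difference of -0.54, where the median over all genes at this level was -0.05. The median of these neighbours was -0.57 among the samples numbered 1 to 4 and -0.54 among those numbered 5 to 8, beside -0.03 and -1.20 for *Hmga2*. Between the sets of *GFP*-NSPCs the neighbours had a median difference of -0.02, beside 1.26 for *Hmga2*. The neighbours of *Hmgb2* and *Hmgb3* had medians of -0.07 and -0.10 over 16 samples. They lay from -12.1 to 12.4 Mb of *Hmgb2* and from -20.5 to 2.73 Mb of *Hmgb3*, beside -5.07 to 6.67 Mb for *Hmga2*. The part of the neighbourhood in the fold of *Hmga2* was not tested.

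**Figure D3:**
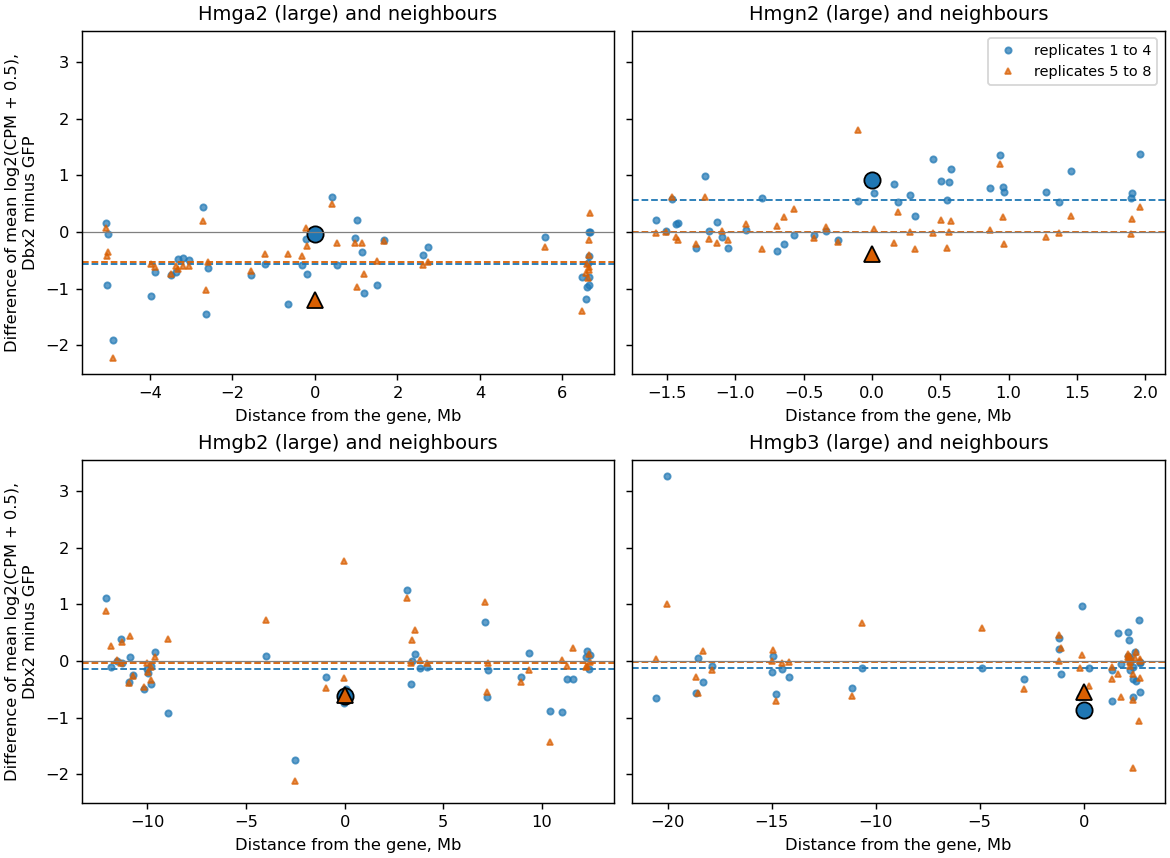
Difference of mean log2(CPM + 0.5), *Dbx2*-NSPCs minus control cultures (vertical axes), for 4 genes (large symbols) and the 20 nearest genes of at least 10 CPM on each side, by distance in Mb, with circles for samples numbered 1 to 4, triangles for 5 to 8 and dashed lines at the neighbours' medians. The neighbours of *Hmga2* had medians of -0.57 and -0.54, and those of *Hmgn2* 0.56 and 0.01.

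The 5 genes whose pattern was most like that of *Hmga2*, by the mean absolute difference between centred log2 values over 16 samples, were *Ccdc9*, *Asf1a* (a histone chaperone), *Mthfd1l* (a mitochondrial folate enzyme), *Fstl1* (a secreted glycoprotein) and *Ddx21* (a nucleolar RNA helicase). Their differences from *Hmga2* ran from 0.196 to 0.216, against a median of 0.538 over the 8650 genes compared. *Ddx21*, for example, averaged 765 CPM in *GFP*-NSPCs numbered 5 to 8 and 387 CPM in those numbered 1 to 4, beside 458 and 399 CPM in *Dbx2*-NSPCs in the same order. As likeness to *Hmga2* chose them, their own folds are given as a description only: they ran from -1.01 to -0.74 on the log2 scale among the samples numbered 5 to 8.

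**Figure D4:**
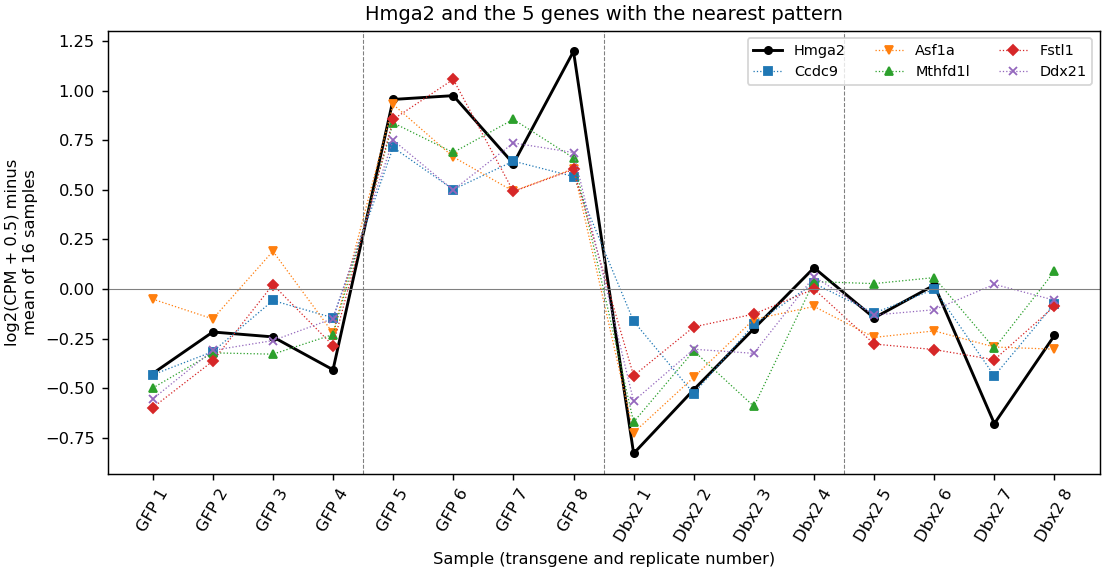
Centred log2(CPM + 0.5) of *Hmga2* (black) and the 5 genes nearest to it (coloured), by sample along the horizontal axis, with dashed lines between the groups of 4. All 6 genes stood highest on average in *GFP*-NSPCs numbered 5 to 8, where *Hmga2* was at 60.1 to 89.2 CPM.

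*Hmgn2* (ENSMUSG00000003038, chromosome 4, 133964738 to 133968650, - strand) was the other gene whose fold differed between the sets. In *GFP*-NSPCs it was at 12.5, 15.9, 10.8 and 8.0 CPM in samples 1 to 4 and at 21.1, 31.3, 33.8 and 39.5 CPM in samples 5 to 8. In *Dbx2*-NSPCs it was at 17.7, 23.7, 26.7 and 21.5 CPM, and at 23.2, 19.6, 25.3 and 25.0 CPM. The *GFP*-NSPCs numbered 1 to 4 lay below every other sample, while the sets of *Dbx2*-NSPCs overlapped each other. The gene rose in *Dbx2*-NSPCs among the samples numbered 1 to 4 (log2 fold change 0.92, limma, adjusted p = 0.0178) and had a log2 fold change of -0.40 (adjusted p = 0.146) among those numbered 5 to 8. The difference between these folds was -1.32 (SE 0.300, adjusted p = 0.00432). Over 16 samples the fold change was 0.26 on the log2 scale (95% interval -0.30 to 0.83) and did not pass (adjusted p = 0.562). The samples numbered 5 to 8 exceeded those numbered 1 to 4 within *GFP*-NSPCs (log2 difference 1.38, adjusted p = 1.90e-05), and within *Dbx2*-NSPCs the difference was 0.06 (95% interval -0.38 to 0.50). The increase among the samples numbered 1 to 4 missed the threshold without *GFP*-NSPC sample 3 or 4 or *Dbx2*-NSPC sample 2 or 3 (adjusted p from 0.0523 to 0.0664) and without the filter on low values (0.0568). Among those numbered 5 to 8 the decrease passed without *GFP*-NSPC sample 5 (adjusted p = 0.0213).

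The neighbours of *Hmgn2* also moved, and on 1 side of the gene. Of the 20 nearest genes at higher coordinates, 20 were higher in *Dbx2*-NSPCs among the samples numbered 1 to 4, with a median log2 difference of 0.74, beside a median of 0.01 for the 20 at lower coordinates. The median over all genes averaging 10 CPM or more was -0.06. These neighbours lay from -1.58 to 1.96 Mb of *Hmgn2*. Among the samples numbered 5 to 8 these medians were 0.02 and 0.00. Between the sets of *GFP*-NSPCs the 20 genes at higher coordinates had a median difference of 0.71, with 20 of 20 higher in the samples numbered 5 to 8. The median over all genes at that level was 0.03. The part of these neighbours in the fold of *Hmgn2* was not tested. In its transcript ends, 35.0% of read-length windows also occur in 6 other genes, of which 5 are pseudogenes, so its level could have been split by the counting.

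*Hmgn3* (ENSMUSG00000066456, chromosome 9, 83109948 to 83146685, - strand) was higher in *Dbx2*-NSPCs in 8 of 8 same-numbered pairs. It was at 179, 181, 176 and 167 CPM in *GFP*-NSPCs numbered 1 to 4 and at 176, 162, 167 and 171 CPM in those numbered 5 to 8. In *Dbx2*-NSPCs it was at 238, 212, 216 and 215 CPM, and at 183, 171, 195 and 179.6 CPM. The increase was thus larger than the spread among samples numbered 1 to 4 (log2 fold change 0.32, limma, adjusted p = 0.0233), while the groups overlapped among those numbered 5 to 8 (0.10, adjusted p = 0.351). The difference between these folds, -0.22 (95% interval -0.46 to 0.02), did not pass the test (adjusted p = 0.292). Over 16 samples the log2 fold change was 0.21 (SE 0.0725) and the adjusted p 0.0508. It passed with TMM scaling (adjusted p = 0.0429) and with the set as a covariate (adjusted p = 0.0134). Within *Dbx2*-NSPCs, *Hmgn3* was lower in the samples numbered 5 to 8 than in those numbered 1 to 4 (-0.28, adjusted p = 0.0222), the only one of the 9 genes to pass there, where 8.74% of all tested genes were lower and 8.76% higher, 17.5% in all. The increase among the samples numbered 1 to 4 missed the threshold without *GFP*-NSPC sample 3 or 4 or *Dbx2*-NSPC sample 1 or 3 (adjusted p from 0.055 to 0.0751) and with eBayes without trend (0.0832).

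*Hmgn1* (ENSMUSG00000040681, chromosome 16, 96120618 to 96127729, - strand) and *Hmgn5* (ENSMUSG00000031245, chromosome X, 109004534 to 109013404, - strand) did not pass the test in any of the comparisons between the transgenes. *Hmgn1* ranged from 541 to 677 CPM in *GFP*-NSPCs and from 511 to 607 CPM in *Dbx2*-NSPCs, with a log2 fold change of -0.09 (95% interval -0.22 to 0.04). *Hmgn5* ranged from 187 to 264 CPM and from 174 to 244 CPM, with a log2 fold change of -0.13 (95% interval -0.33 to 0.07). Both genes overlapped widely between the groups. Among the samples numbered 1 to 4, *Hmgn5* had a log2 fold change of -0.28 (adjusted p = 0.140), which passed when *GFP*-NSPC sample 1 was left out (adjusted p = 0.0258).

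Other genes of these chromatin and let-7 pathways were examined in lists, of which 53 genes were tested and 10 fell and 1 rose over 16 samples, where 7.78% of all tested genes were lower and 8.03% higher. The counts per list below are small and are to be read against those shares. Among 14 tested genes with an HMG box or related to such genes, 3 fell, with a median log2 fold change of -0.25. *Tox3*, an HMG-box transcription regulator of neural progenitors, fell from 63.5 ± 9.43 to 29.0 ± 4.11 CPM (SD, n = 8, limma, log2 fold change -1.12). *Bbx*, another HMG-box factor, fell from 76.2 to 47.2 CPM (-0.67), and *Tfam*, which packages mitochondrial DNA with HMG boxes, from 54.2 to 38.3 CPM (-0.50). Of the 7 linker histone genes, whose products share nucleosome sites with HMGN proteins, *Hist1h1b* (-0.67, adjusted p = 0.0148) and *Hist1h1e* (-0.62, adjusted p = 0.0187) fell and the other 5 did not pass.

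Of the list around Lin28, let-7 and *Hmga2*, 14 of 17 genes were tested, 2 fell and 1 rose, with a median log2 fold change of -0.03. *Igf2bp2*, an RNA-binding protein gene known as a transcriptional target of *Hmga2*, fell from 53.1 ± 11.3 to 15.95 ± 6.84 CPM (SD, n = 8, limma, log2 fold change -1.83). It fell in both sets, by 2.06 on the log2 scale among the samples numbered 1 to 4 and by 1.59 among those numbered 5 to 8. The other 2 that passed stayed under a mean of 10 CPM: *Trim71*, an RNA-binding regulator of stem cells, went from 7.61 to 0.888 CPM, and *Igf2bp3* from 0.353 to 5.50 CPM, with 0.888 and 0.353 CPM under the floor. The rise of *Igf2bp3* lay in the samples numbered 5 to 8 (0.265 to 10.5 CPM), beside 0.44 and 0.508 CPM in those numbered 1 to 4. *Igf2bp3* reached at most 0.71 CPM in *GFP*-NSPCs and met the filter on low values through *Dbx2*-NSPCs alone. Its rise is thus a description only, also in the counts of genes that rose. *Lin28a* and *Lin28b*, which block let-7 maturation, were listed at 0 in every sample. The 4 tested genes of the SET complex, in which HMGB2 is a known partner, had log2 fold changes from -0.20 to 0.03, and the 4 tested of 9 genes for receptors and partners of extracellular HMGB1 had -0.69 to 0.76, none of them past the test over 16 samples. Of 10 proliferation genes, *Ccna2* (-0.64, adjusted p = 0.0157), *Cenpa* (-0.52, adjusted p = 0.0437) and *Ccnb1* (-0.35, adjusted p = 0.0333) fell in *Dbx2*-NSPCs over 16 samples, and the median of the list was -0.33. Of these, *Ccna2* passed among the samples numbered 1 to 4, and *Ccnb1* and *Cenpa* in neither set. *Mki67*, *Top2a* and *Pcna* did not pass (-0.13, -0.23 and -0.11), nor did *Birc5* (0.34), which rose among the samples numbered 5 to 8 (0.58, adjusted p = 0.00782). *Cdk1* (172 to 115 CPM), *H2afz* (178 to 145 CPM) and *Mcm2* (91.4 to 71.8 CPM) were lower on average and did not pass either. Among the samples numbered 5 to 8, 1 of the 10 genes passed as higher and 1 as lower. With the replicate block, 22 of these 53 context genes passed, where 21.7% of all tested genes did.

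**Figure D5:**
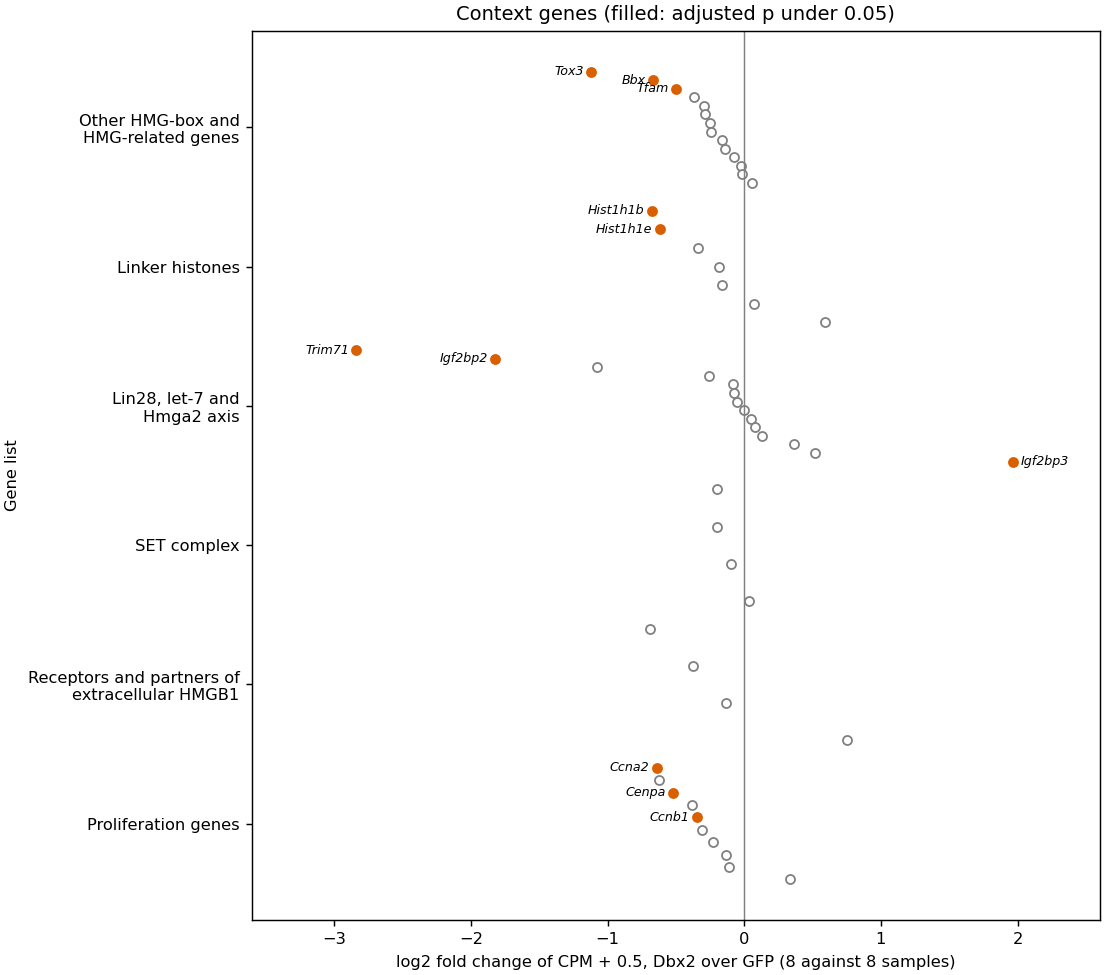
Log2 fold changes of CPM + 0.5 over 16 samples (horizontal axis) for the tested genes of 6 lists (rows), filled and named where the adjusted p was under 0.05. *Trim71*, *Igf2bp2* and *Tox3* lay farthest to the left. The gene that rose was *Igf2bp3*, which met the filter on low values through *Dbx2*-NSPCs alone.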

How the data were processed

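RNA from 16 cultures had been purified and made into QuantSeq 3′ libraries (100 ng of RNA, NextSeq500, reads of 101 bases). The authors checked reads with FastQC 0.11.8, trimmed them with bbduk, aligned them with STAR 2.5.0a to GRCm38, and deposited CPM per gene (edgeR 3.36), scaled to each sample's total. The counting tool and strand are not given in the sources used here. Within 0.006 CPM, 100% of values were whole reads.

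Groups follow the transgene named in each label. The labels do not give the cell line, so the study's line covariate was not fitted. The series text calls the replicates biological, but nothing ties each to a separate derivation, and p-values measure the spread between these samples. Tests were run in R 4.3.3 with limma 3.58.1 (eBayes with trend, 2-sided) on the log2 of CPM plus 0.5, for genes above 1 CPM in 4 samples or more. The p-values were adjusted by Benjamini-Hochberg over all 12533 genes, with 0.05 as the threshold. Fold changes on this scale understate the changes of low genes. The sets of samples numbered 1 to 4 and 5 to 8 were fitted alone, and their difference as an interaction term. Positions and transcripts came from GENCODE M21, and promoters and microRNAs from RefSeq (GRCm38.p6). Neighbours were the 20 nearest genes averaging 10 CPM or more on each side (fewer at a chromosome's end), a count chosen after the data were seen.

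The members and gene lists were chosen with earlier results of these data known. All 9 members were named, with up to 4 genes per list that passed over 16 samples with a group mean of 10 CPM or more, the 2 under that mean being named after their values were seen, and the 5 genes most like *Hmga2*. Same-numbered samples of both groups deviated together from the group means (correlations 0.152 to 0.303 for 8 of 8 numbers). These deviations hold the difference between the sets, so the correlations cannot show pairing by number. Within the sets the correlations were -0.0074 to 0.119. A sample's own number gave the highest correlation for 4 of 8 numbers, both from the group means and within the sets. The replicate block and the same-numbered pairs thus follow the labels only. Alternatives were pseudocounts of 0.1 and 2, other filters, TMM and median-of-ratios scaling, the replicate block, eBayes without trend, each sample left out, and the set as a covariate. DESeq2 1.42.0 and edgeR 4.0.16 were run on whole reads. edgeR called 1928 genes over 16 samples, DESeq2 2197 and limma 1982. edgeR with the set as a covariate, and the contrasts between sets within a transgene, were chosen after the data were seen. Tools were tested on simulated data. Python 3.11.15, numpy 2.4.6, pandas 2.3.3 and matplotlib 3.10.9 were used. Some items that were measured are not reported here.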

Additional observations from a re-analysis of the deposited data

Results flagged for a closer look

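The fold of *Hmga2* differed between the sets of samples by the test of that difference (interaction -1.17 on the log2 scale), as did that of *Hmgn2* (-1.32). In 3 of 54 groups of samples tested, a single sample lay far from the rest, and chance alone gives about 1 in 20. *Hmgb1* was at 295 CPM in *GFP*-NSPC sample 1, below the other 3 samples of its set. *Hmgb3* was at 231 CPM in *GFP*-NSPC sample 8, above the other 3 of its set, and *Hmgn3* was at 238 CPM in *Dbx2*-NSPC sample 1, above the other 3.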

How the results depend on the processing

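No result on the 9 genes that passed a test turned direction under any alternative that was run. Over 16 samples, *Hmgb2* and *Hmgb3* passed under all 28 alternatives. The count of 2 of 9 genes rose to 4, by *Hmga2* and *Hmgn3*, with the replicate block, with the set as a covariate, with DESeq2 and with edgeR plus the set, and it ran from 2 to 4 with each sample left out, the 4 being without *GFP*-NSPC sample 1. The cause was not tested. The 11 context genes of 53 became 22 with the replicate block, 21 with the set as a covariate and 19 with edgeR plus the set, where 21.7%, 24.2% and 23.4% of all tested genes passed. Among the samples numbered 1 to 4, the 4 genes became 1 without the filter on low values (*Hmgn3*) and 1 with eBayes without trend (*Hmgn2*). There the count ran from 1 to 5 with each sample left out. It was 1 (*Hmgb3*) without *GFP*-NSPC sample 3 or 4 and 2 (*Hmgb2* and *Hmgb3*) without *Dbx2*-NSPC sample 3. Among those numbered 5 to 8, the 3 genes became 1 (*Hmga2*) without the filter, and ran from 3 to 4 with each sample left out. The 2 genes whose folds differed between the sets were 2 under every alternative. The replicate block changed no other call on the 9 genes. At this depth, 2 to 12 reads per sample set the precision of *Hmga1*, whose 95% interval over 16 samples ran from -1.11 to 0.22 on the log2 scale.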

Other observations

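Some context genes, chosen after their values were seen, passed the test within a set of samples and not over 16 samples. Among those numbered 5 to 8, where *Hmga2* fell, the cell cycle inhibitor gene *Cdkn2a* rose (limma, log2 fold change 0.43, adjusted p = 0.00637), and the difference of its fold between the sets did not pass (adjusted p = 0.0660). *Cdkn2b*, the related inhibitor gene, went the other way in the same samples, from 2.53 to 0.503 CPM, the latter under 3 reads (adjusted p = 0.0152). *Set*, of the SET complex, and *Cd24a*, a partner of extracellular HMGB1, fell in the same samples (-0.26 and -0.38). The linker histone gene *H1f0* fell by 0.62 on the log2 scale among the samples numbered 1 to 4, and its fold differed between the sets (0.87, adjusted p = 0.00299). Another linker histone gene, *Hist1h1c*, rose among the samples numbered 5 to 8 (limma, 0.30, adjusted p = 0.0300). *Pbrm1*, of the HMG-box and related list, fell in those samples (limma, -0.35, adjusted p = 0.00315).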
